A study of Homo sapiens with 12 samples.

Results

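The taurolidine response of VA-ES-BJ cells was read from 4 of the 12 arrays of a study of 3 human soft tissue sarcoma lines, and was set against the other 8 arrays only to show where it differed. VA-ES-BJ is an established line that the labels call epithelioid cell sarcoma. The arrays with the drug were VA-ES-BJ cells given taurolidine at 250 µmol/l and VA-ES-BJ cells given taurolidine with TRAIL at 50 ng/ml, and the arrays without it were untreated VA-ES-BJ cells and VA-ES-BJ cells given TRAIL alone, all after 6 h. A-204 (labelled rhabdomyosarcoma) and SK-LMS-1 (labelled leiomyosarcoma) were treated in the same 4 ways, and each line and treatment had 1 array. RNA came from whole cultures, where fewer cells of a type and less RNA per cell cannot be told apart. Each response below is the mean of 2 arrays with taurolidine minus the mean of 2 arrays without it, where 1 array on each side also had TRAIL.

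Taurolidine is a derivative of the amino acid taurine that is used as an antimicrobial and has been tested against tumour cells. TRAIL is a death ligand: it binds receptors on the cell surface that recruit the adaptor FADD and caspase-8. Epithelioid sarcoma is a soft tissue tumour that shows both epithelial and mesenchymal features and typically lacks SMARCB1, a core subunit of the SWI/SNF chromatin remodelling complex. Genes with short-lived mRNA, such as immediate-early transcription factors and feedback inhibitors of signalling, are among the transcripts that move within hours of a stress.

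The label was read against markers of epithelioid sarcoma, some of which were present on the VA-ES-BJ arrays. SMARCB1 had signals of 262, 76.9, 152 and 21.9 with taurolidine, with both agents, untreated and with TRAIL, against 1017.5 or more on every array of the other lines. Of the 9 epithelioid sarcoma markers, 6 exceeded the median of all deposited values (136.5) on some VA-ES-BJ array. One of the 6 was SMARCB1 itself, whose loss is the feature, and the others were the keratins KRT8, KRT18 and KRT19, the intermediate filament gene VIM and the mucin MUC1. KRT8, KRT18, VIM and MUC1 exceeded that median on arrays of the other lines too, whereas KRT19 did not exceed 124.6 there. CD34, the mucin MUC16 and the transcription factor ERG, which such tumours can also express, did not exceed it. CDH1 and DSP (epithelial junctions), MYOD1 and MYOG (skeletal muscle), PTPRC and CD14 (leukocytes) and CDH5, VWF and KDR (endothelium) did not exceed it either. Of other markers, 4 of 5 smooth muscle, 4 of 6 fibroblast, 2 of 4 epithelial and 1 of 4 each of skeletal muscle, leukocyte and endothelial genes exceeded it on some VA-ES-BJ array. Their summed signals ran from 5148 to 5182 with taurolidine, against 8622 to 8772 without, for fibroblast genes, from 11501 to 12214 against 9138 to 9602 for smooth muscle genes, and from 209 to 218 against 108 to 231 for leukocyte genes. They were 475 and 379 against 310 and 217 for epithelial genes and 395 and 376 against 295 and 311 for endothelial genes. The fibroblast sums were thus lower with taurolidine and the smooth muscle, epithelial and endothelial sums higher, without overlap. Such separation was common: of all single genes tested, 32.9% lay wholly higher and 27.1% wholly lower with taurolidine in VA-ES-BJ. Within these sets the single genes without overlap were COL1A1 and COL3A1, ACTA2 and TAGLN, EPCAM, CLDN4 and DSP, and PECAM1, in that order. DSP stayed under 136.5 on every VA-ES-BJ array. The other members of these sets overlapped. So did the sums of skeletal muscle (115 and 255 against 220 and 167) and epithelioid sarcoma markers (117483 and 116508 against 88555 and 123648). The sets whose sums overlapped also held genes without overlap, CD14 and KRT18 among them. The part of all these genes in the results was not tested. The VA-ES-BJ TRAIL array stood apart at the bright end: its hybridisation controls averaged 13.32 on the log2 scale, against 12.24 to 12.57 on the other VA-ES-BJ arrays. On that array the brightest 5% of genes (712 genes) lay a median 0.34 above the untreated array, whereas the other genes lay at -0.03. Across genes the 2 arrays with taurolidine correlated at 0.981 and the 2 without it at 0.980, against 0.960 to 0.963 between the sides and at most 0.805 with an array of another line.

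Taurolidine changed 2041 of 14221 genes tested in VA-ES-BJ (14.4%; limma with Benjamini-Hochberg adjusted p under 0.05). Of these, 662 were higher with taurolidine (4.66% of genes tested) and 1379 were lower (9.7%), and 768 changed at least 2-fold, 106 of them up and 662 down. All 2041 had the same sign in both pairs, taurolidine minus untreated and both agents minus TRAIL. For 2040 of them both arrays with taurolidine lay on one side of both arrays without it. This was so for 32.9% of all genes in the higher direction and 27.1% in the lower. The calls were made from these same arrays and favour both kinds of agreement, so the counts are description only. The median size of the log2 change was 0.333 for taurolidine alone and 0.321 for taurolidine on top of TRAIL, against 0.145 between the 2 arrays with taurolidine and 0.197 between the 2 without it. The share of calls that were higher rests on the scale. It was 662 higher and 1379 lower as deposited, 1059 and 1174 after quantile normalisation, 2376 and 945 with equal array medians, and 78 and 5197 with the added poly-A control transcripts set equal. Those controls were themselves brighter with taurolidine, at 11.18 and 11.02 (log2) against 10.63 and 10.50 in VA-ES-BJ, and by 0.73 for A-204 and 0.52 for SK-LMS-1. Their part in the split was examined only through that last scale.

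The 15 largest rises included immediate-early transcription factors. FOSB, an AP-1 subunit, had signals of 2642 and 2742 with taurolidine and with both agents, against 35.7 untreated and 18.4 with TRAIL, a log2 change of 6.16 ± 0.31 (SE; adjusted p = 0.00025). FOS, its relative, had 2692 and 3289 with taurolidine, against 148 and 179 without it. For both genes each signal with the drug was over 10 times each signal without it. The probe set listed under RNA45SN5, the 45S ribosomal RNA precursor, had 14743 and 12650 with taurolidine, against 151 and 345 without, a log2 change of 5.82 ± 0.29 (adjusted p = 0.00024). The stress-induced factor ATF3 had 8347 and 6804 with taurolidine, against 873 and 861 without, and the growth-induced factor EGR3 had 972 and 964 against 104 and 96.7. All 5 also passed the test in A-204 and SK-LMS-1 in the same direction.

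The other large rises were NR4A2 (an orphan nuclear receptor), HES1 (a transcriptional repressor downstream of Notch), RGS2 (a regulator of G protein signalling), PPP1R15A (a phosphatase subunit that reverses the translation block of the integrated stress response), PTGS2 (cyclooxygenase 2), GADD45B, UBALD2, KLF15, TGM5 and the inducible chaperone HSPA6. Their log2 changes lay between 2.05 for HSPA6 and 2.53 for NR4A2. HSPA6 had 419 and 649 with taurolidine, against 182 and 74.3 without, a log2 change of 2.05 ± 0.52 (adjusted p = 0.045). In SK-LMS-1 the same probe set had 21598 and 22206 with taurolidine, against 205 and 55.0 without. The log2 difference of VA-ES-BJ from the mean of the other lines was -3.00 ± 0.64 and did not pass (adjusted p = 0.11). TGM5 passed the test under 14 of 28 alternative settings, HSPA6 under 10 of 28 and KLF15 under 21 of 27. The other 12 of the 15 passed under 27 of 28, failing only where the 3 arrays with TRAIL alone were left out.

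The 15 largest falls included MED26, SMAD7 and 6 zinc finger genes. MED26, a Mediator subunit that takes part in the switch to elongation, had 64.2 and 115 with taurolidine, against 2247 and 1691 without, a log2 change of -4.32 ± 0.26 (adjusted p = 0.00034). SMAD7, the inhibitory SMAD of the TGF-beta pathway, had 129 and 87.5 with taurolidine, against 1814 and 1326 without (-3.72 ± 0.18, adjusted p = 0.00024). CCNF, the F-box protein cyclin F, had 174 and 208 with taurolidine, against 2401 and 2663 without. In each of these genes every signal without the drug was over 10 times each signal with it. Zinc finger genes among the 15 were ZNF680, ZNF273, ZNF107, ZNF627, ZNF267 and ZNF708, with log2 changes of -4.07 to -3.22. The remaining ones were the repressor HIC2, the chromatin subunit EPC1, the splicing-associated CCDC12, the mitochondrial MMAA, the ubiquitin ligase RNF145 and the nuclear receptor corepressor NRIP1. All 15 also had lower values in both other lines, and all but MMAA and RNF145 in SK-LMS-1 passed the test there. For ZNF273, ZNF107 and EPC1 another probe set of the same gene had the opposite sign, up to 0.28, 0.55 and 1.23.

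**Figure D1:**
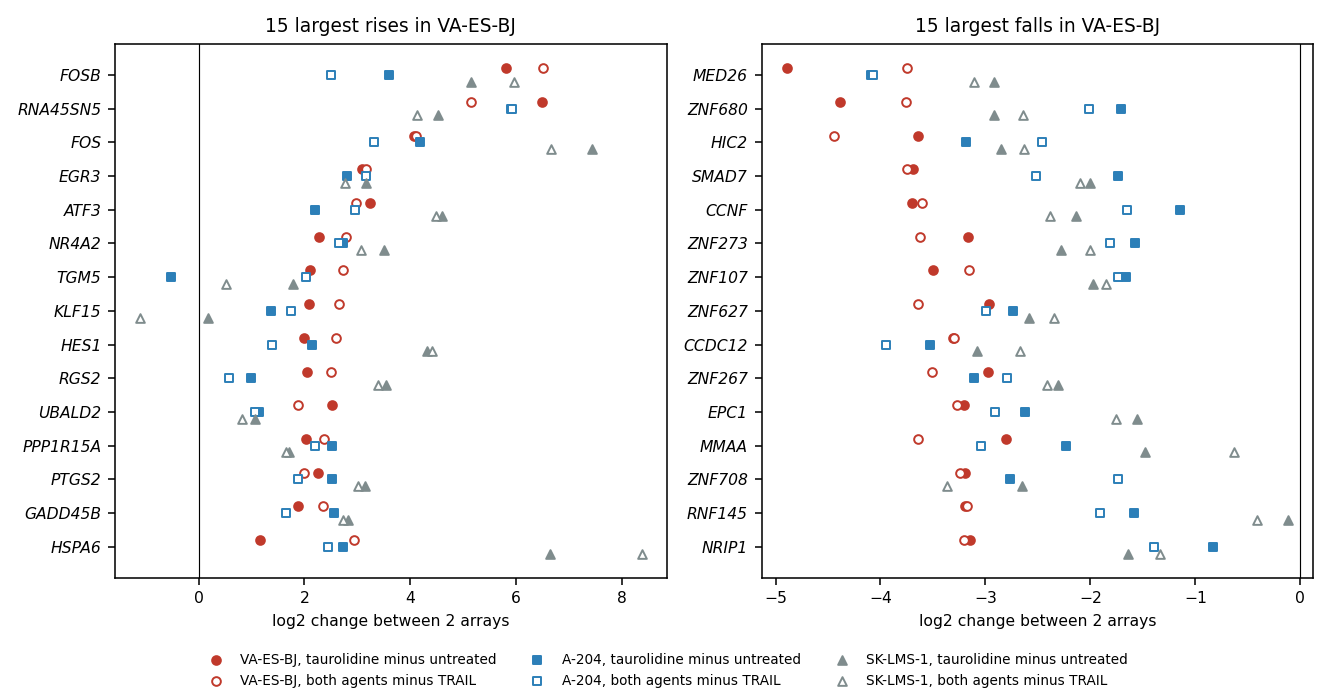
Log2 changes between single arrays (horizontal axes) for the 15 largest rises and 15 largest falls in VA-ES-BJ, with filled marks for taurolidine minus untreated and open marks for both agents minus TRAIL in each of the 3 lines. The 2 VA-ES-BJ marks lie on the same side of 0 for every gene, which the choice of genes required. HSPA6 lies below 3 in VA-ES-BJ and above 6 in SK-LMS-1.

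Part of this response also passed in the other lines. Of the 662 genes higher in VA-ES-BJ, 218 also passed as higher in both A-204 and SK-LMS-1, 158 in A-204 only, 47 in SK-LMS-1 only and 239 in neither. Of the 1379 lower genes the counts were 797, 321, 68 and 193 in that order. The background was 30.3% of genes called for A-204 (11.5% higher, 18.8% lower) and 16.3% for SK-LMS-1 (5.91% higher, 10.3% lower). The sign was the same in both other lines for 544 of the higher genes and 1253 of the lower ones. Over all genes tested it was the same in 55.3% of those with a change above 0 in VA-ES-BJ and in 58.8% of those with a change below 0. In contrast, 26 of the higher genes and 20 of the lower ones had the opposite sign in both other lines. A gene that passed in VA-ES-BJ alone is not thereby shown to differ, so the difference itself was tested.

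The VA-ES-BJ response differed from the mean response of A-204 and SK-LMS-1 in 71 genes (0.499% of genes tested, limma adjusted p under 0.05), 29 of them higher in VA-ES-BJ (0.204%) and 42 lower (0.295%). Of the 71, 55 had also changed in VA-ES-BJ itself, 16 with a higher and 39 with a lower response than elsewhere. Against A-204 alone 187 genes differed (1.31%; 0.851% higher and 0.464% lower) and against SK-LMS-1 alone 81 (0.57%; 0.176% higher and 0.394% lower), and 23 of the 71 passed against each line. In 28 of the 29 and in all 42, both VA-ES-BJ pair changes lay outside all 4 pair changes of the other lines. This was so for 12.2% and 8.65% of all genes. The calls were made from these same changes and favour such separation, so the counts only describe the called genes. Of the 50 genes that moved further in VA-ES-BJ than elsewhere along their own sign, 4 moved by at least 0.5 (log2) the other way in both other lines, 11 moved there by less than 0.5, and 35 were weaker or mixed. With 1 array per line and treatment, leaving out 1 VA-ES-BJ array gave 6 calls without taurolidine (5 of them among the 71), 6 without both agents (5), 10 without TRAIL (7) and 40 without the untreated array (21). A TRAIL term for each line gave 0. An unadjusted p under 0.05 was reached by 2097 genes with the shared TRAIL term and by 1895 with a term per line.

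**Figure D2:**
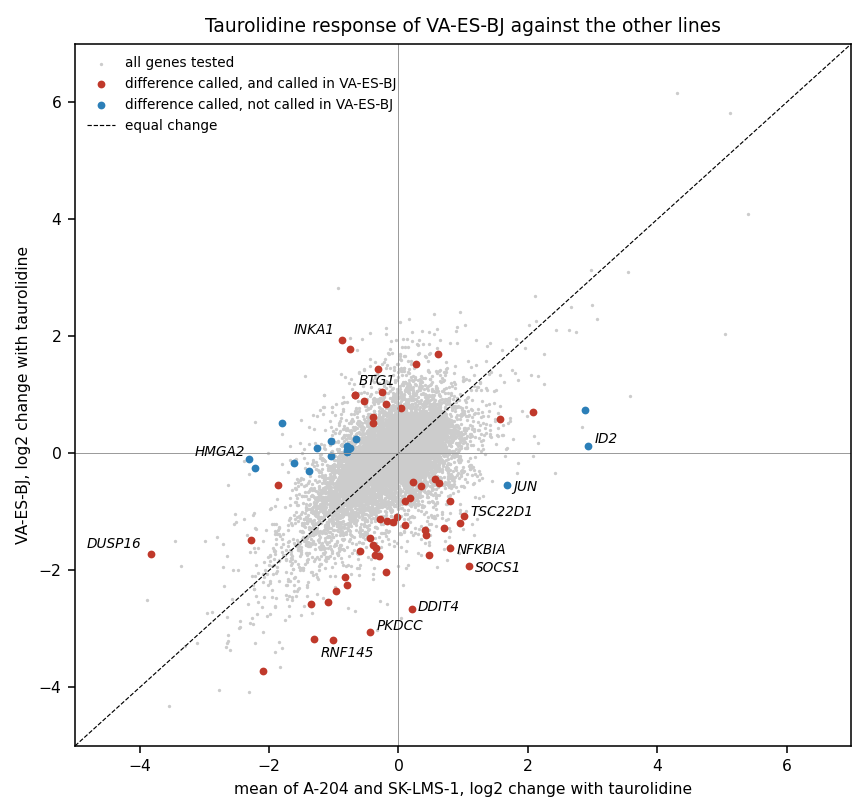
Log2 change with taurolidine in VA-ES-BJ (vertical axis) against the mean log2 change in A-204 and SK-LMS-1 (horizontal axis) for all 14221 genes, with the 71 genes whose difference passed in colour. SOCS1, DDIT4, NFKBIA and TSC22D1 lie below the dashed line of equal change, and ID2 and HMGA2 lie near 0 in VA-ES-BJ but far from 0 elsewhere.

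The genes lower in VA-ES-BJ than elsewhere included several feedback regulators of signalling. The inhibitor of NF-kB, NFKBIA, and the related nuclear protein NFKBIZ are both made in response to NF-kB and act back on it, and SOCS1 is made in response to cytokines and blocks JAK signalling. The promoters of the first pair are shown because both hold the kappa-B consensus, a site that NF-kB can bind, which is in capitals. They are RefSeq windows on GRCh38.p14 from 250 bases before the gene start to 50 bases after it, 5′ to 3′ along the gene. NFKBIA lies on the minus strand at chr14:35404700-35404999 and its match starts 81 bases before the gene start on the opposite strand of the window. NFKBIZ lies on the plus strand at chr3:101827740-101828039 and its match starts 223 bases before the start.
NFKBIA: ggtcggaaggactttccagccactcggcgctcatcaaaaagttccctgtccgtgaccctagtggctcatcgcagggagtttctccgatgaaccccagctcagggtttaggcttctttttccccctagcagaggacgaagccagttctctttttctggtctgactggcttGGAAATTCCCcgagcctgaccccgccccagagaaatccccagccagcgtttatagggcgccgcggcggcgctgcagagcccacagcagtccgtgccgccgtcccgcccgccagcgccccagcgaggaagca
NFKBIZ: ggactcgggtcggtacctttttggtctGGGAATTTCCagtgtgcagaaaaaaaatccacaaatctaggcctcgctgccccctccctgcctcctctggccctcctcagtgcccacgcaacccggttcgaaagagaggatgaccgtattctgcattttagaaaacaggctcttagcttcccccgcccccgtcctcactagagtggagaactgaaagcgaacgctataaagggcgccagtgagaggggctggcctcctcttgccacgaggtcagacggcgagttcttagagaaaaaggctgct
Searched on both strands, the kappa-B consensus occurred in 5.72% of 27305 promoters and in 12 of 21 NF-kB target genes with a promoter in the table; a match is a description of the letters only.

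NFKBIA had 3758 and 3417 with taurolidine and with both agents in VA-ES-BJ, against 9202 untreated and 13163 with TRAIL. In A-204 the signals were 2215 and 1999 with taurolidine, against 1715 and 2470 without, and in SK-LMS-1 they were 8412 and 7942 against 2401 and 3143. The 2 sides did not overlap in VA-ES-BJ or SK-LMS-1 but ran in opposite directions, and they overlapped in A-204. The change was -1.62 ± 0.22 in VA-ES-BJ (adjusted p = 0.0047), 0.03 for A-204 and 1.57 for SK-LMS-1, and the difference was -2.42 ± 0.27 (adjusted p = 0.026; passed under 12 of 27 alternatives). NFKBIZ had 5025 and 4824 with taurolidine, against 8524 and 8869 without, a change of -0.82 ± 0.11, with 0.38 for A-204 and 1.23 for SK-LMS-1 (difference -1.62 ± 0.13, adjusted p = 0.0098). SOCS1 had 490 and 365 with taurolidine, against 1889 and 1419 without, and in SK-LMS-1 2109 and 1972 against at most 454. Its change was -1.92 ± 0.22 in VA-ES-BJ, -0.14 for A-204 and 2.32 for SK-LMS-1, and its difference of -3.01 ± 0.27 was the largest of the lower genes (adjusted p = 0.014; 16 of 27 alternatives). One of the 2 other SOCS1 probe sets changed by 0.24 in VA-ES-BJ.

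Of the 27 NF-kB targets tested, 5 fell in VA-ES-BJ (NFKBIA, NFKBIZ, REL, NFKBIE and TNFAIP3) and 2 rose (CXCL2 and IER3). REL, an NF-kB subunit, had 619 and 603 with taurolidine, against 1511 and 1567 without. IER3, a stress-responsive survival gene, had 26766 and 25096 with taurolidine, against 12403 and 15865 without, and the chemokine gene CXCL2 had 11160 and 10614 against 5756 and 6763. These counts stand beside 4.66% of all genes higher and 9.7% lower, and the list median was -0.17 beside 0.06 over all genes tested. Of all 14221 genes, 2376 were higher and 945 lower with equal array medians, and 78 and 5197 with equal control transcripts. The list counts rest on the scale and the arrays. On those 2 scales 4 members were higher and 3 lower (list median 0.06), and 0 and 12, in that order. None was higher, and 3, 4 and 4 were lower, in the VA-ES-BJ arrays alone, with a TRAIL term per line and without SK-LMS-1. Over all genes 80, 176 and 172 were higher and 674, 900 and 892 lower, in that order. Fewer rises passed when any VA-ES-BJ array was left out, as over all genes. The list median was then -0.19 without taurolidine, -0.09 without both agents, -0.16 without the untreated array and -0.15 without TRAIL. The medians of the same list were -0.06 for A-204 and 0.27 for SK-LMS-1, where 4 and 8 members rose and 6 and 3 fell. Among all genes 11.5% rose and 18.8% fell in A-204, and 5.91% and 10.3% in SK-LMS-1. CXCL2 changed by 0.80 ± 0.18 in VA-ES-BJ and by 3.01 in SK-LMS-1, but its difference from the mean of the other lines did not pass (-0.77 ± 0.22, adjusted p = 0.19).

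DDIT4, a stress-induced inhibitor of mTORC1, had 2374 and 2263 with taurolidine in VA-ES-BJ, against 13234 and 16208 without. In A-204 it had 2176 and 2444 against 6163 and 7982, and in SK-LMS-1 3037 and 4370 against 869 and 932. It thus fell in VA-ES-BJ and A-204 and rose in SK-LMS-1, with changes of -2.65 ± 0.15, -1.60 and 2.0, and the difference was -2.85 ± 0.18 (adjusted p = 0.0054; 23 of 27 alternatives). SIK1, a kinase of the salt-inducible family that is induced by cyclic AMP, had 2061 and 1892 with taurolidine, against 4983 and 4644 without. Its change was -1.28 ± 0.13 in VA-ES-BJ, 0.18 for A-204 and 1.24 for SK-LMS-1 (difference -1.99 ± 0.16, adjusted p = 0.011). PLK2, a polo-like kinase of the stress response, had 11657 and 11042 with taurolidine, against 25452 and 34872 without, and changed by -1.39 ± 0.15, -0.55 and 1.39 in the 3 lines (difference -1.81 ± 0.18, adjusted p = 0.022).

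TSC22D1, a leucine zipper protein induced by TGF-beta, was, like NFKBIZ, a gene that fell in VA-ES-BJ and rose in both other lines. It had 2530 and 2492 with taurolidine in VA-ES-BJ, against 5404 and 5162 without. A-204 had 19339 and 23584 against 10846 and 11545, and SK-LMS-1 had 12872 and 11377 against 6058 and 5249. The arrays did not overlap in any line, and the difference was -2.09 ± 0.17 (adjusted p = 0.0098; 20 of 27 alternatives). The further genes named here with a lower difference fell less, or did not pass, in the other lines. RNF145 had 915 and 1047 with taurolidine, against 8455 and 9583 without, and changed by -3.19 ± 0.13 in VA-ES-BJ, -1.75 for A-204 and -0.26 for SK-LMS-1 (difference -2.18 ± 0.16, adjusted p = 0.0071). VAV3, a guanine nucleotide exchange factor, had 3340 and 2977 with taurolidine, against 10577 and 10670 without, and its signals in the other lines were at most 283. NRIP1, the AP-2 factor TFAP2C and ATXN1 had differences of -1.87, -1.84 and -1.45, and 2 of the 3 other probe sets of ATXN1 had the opposite sign in VA-ES-BJ.

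**Figure D3:**
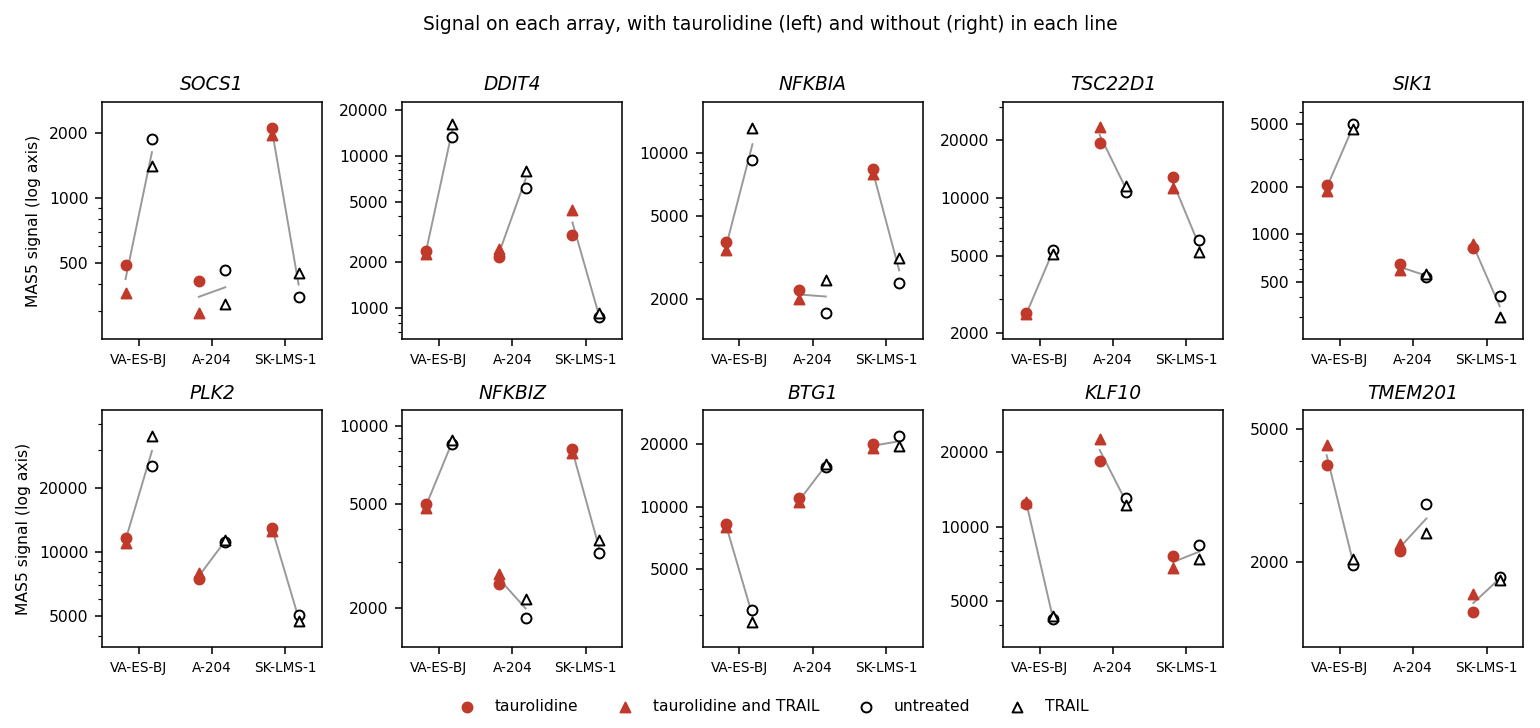
Signal on each of the 12 arrays (vertical log axes) for 10 genes whose VA-ES-BJ response differed from that of the other lines, with the arrays with taurolidine to the left of those without it in each line and grey lines joining the geometric means. In VA-ES-BJ NFKBIA lies at 3758 and 3417 with taurolidine, against 9202 and 13163 without, and BTG1 at 8248 and 7946, against 3175 and 2788.

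The 29 genes higher in VA-ES-BJ than the mean of the other lines included some that had only fallen less, and the balance depended on the line: 121 were higher and 66 lower against A-204, and 25 and 56 against SK-LMS-1. BTG1, an antiproliferative cofactor of mRNA deadenylation, had 8248 and 7946 with taurolidine in VA-ES-BJ, against 3175 and 2788 without. In A-204 it had 11025 and 10461 against 15498 and 16094, and in SK-LMS-1 20116 and 19182 against 21864 and 19480. Its change was 1.44 ± 0.09 in VA-ES-BJ, -0.56 for A-204 and -0.07 for SK-LMS-1 (difference 1.75 ± 0.12, adjusted p = 0.0054; 21 of 27 alternatives), and its other probe set gave 1.5 for both quantities. KLF10, a TGF-beta-inducible zinc finger factor, had 12328 and 12537 with taurolidine, against 4255 and 4351 without, a change of 1.53 ± 0.13 with 0.69 for A-204 and -0.14 for SK-LMS-1 (difference 1.25 ± 0.16, adjusted p = 0.040). INKA1, an inhibitor of the kinase PAK4, had 277 and 253 with taurolidine, against 50.0 and 71.8 without, and its change of 1.94 ± 0.21 stood against -1.17 for A-204 and -0.57 for SK-LMS-1. CTSG, the neutrophil protease cathepsin G, had 225 and 215 with taurolidine, against 40.7 and 73.8 without, at the dim end of the range, and differed by 2.54 ± 0.35 (adjusted p = 0.043; 7 of 27 alternatives).

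TMEM201, an inner nuclear membrane protein, had 3896 and 4469 with taurolidine, against 1964 and 2042 without, whereas its other probe set changed by -0.24 in VA-ES-BJ. BRF2 (a subunit of an RNA polymerase III initiation factor), the TNF receptor family member RELT, TIMM10B and ARMCX2 rose in VA-ES-BJ by 0.84, 0.99, 0.61 and 0.52. DUSP16, a phosphatase of JNK and p38 kinases, fell in all 3 lines and fell least in VA-ES-BJ, where it had 456 and 477 with taurolidine, against 1600 and 1537 without. Its difference of 2.10 ± 0.12 (adjusted p = 0.0040) had the opposite sign on both of its other probe sets. DOLK and GJC1 likewise fell in all 3 lines, with changes of -0.54 and -1.49 in VA-ES-BJ. Genes that did not exceed 136.5 in some line gave further calls: EML6, RRAGD and TAGLN3 were higher, by 1.66, 1.43 and 1.09, and PKDCC, FIGN, RARRES1, C16orf74 and SMAD7 were lower, with differences of -2.63, -2.22, -2.14, -1.73 and -1.63. Where a gene is dim in a line the size of a fall there is limited, although SMAD7 still passed as lower in both other lines.

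Another 16 genes differed between the lines without passing in VA-ES-BJ itself, and 15 of them had changed the same way in both other lines. The 3 described here were chosen after their values were seen. ID2, an inhibitor of basic helix-loop-helix factors, had 23910 and 24635 with taurolidine in VA-ES-BJ, against 20866 and 23546 without. In SK-LMS-1 it had 17684 and 18260 against 787 and 730, and in A-204 28335 and 29660 against 11225 and 12151. It was thus bright in VA-ES-BJ with and without the drug, and its difference was -2.80 ± 0.12 (adjusted p = 0.0015; 24 of 27 alternatives). HMGA2, an architectural chromatin protein of embryonic and mesenchymal tumour cells, had 29046 and 28078 with taurolidine in VA-ES-BJ, against 27062 and 34641 without, while it fell by 2.03 for A-204 and by 2.59 for SK-LMS-1. Its 5 other probe sets gave differences between -0.13 and 0.73, below the 2.21 ± 0.14 of the brightest one. JUN, the AP-1 partner of FOS, had 5256 and 4952 with taurolidine in VA-ES-BJ, against 6970 and 7926 without (-0.54 ± 0.23, adjusted p = 0.17), and changed by 2.12 for A-204 and 1.24 for SK-LMS-1 (difference -2.22 ± 0.28, adjusted p = 0.040).

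Within the immediate-early and AP-1 list, 14 of 28 genes rose in VA-ES-BJ and 4 fell. The counts were 16 and 4 for A-204 and 17 and 2 for SK-LMS-1. Among all genes 4.66% rose and 9.7% fell in VA-ES-BJ, 11.5% and 18.8% in A-204, and 5.91% and 10.3% in SK-LMS-1. The median change was 0.48 in VA-ES-BJ, against 1.08 for A-204 and 1.19 for SK-LMS-1. In the VA-ES-BJ arrays alone 9 rose and 2 fell, and with equal control transcripts 9 rose, 6 fell and the median was -0.06. The same settings gave 80 higher and 674 lower, and 78 and 5197, over all 14221 genes. EGR1, a growth-induced zinc finger factor, rose less in VA-ES-BJ than elsewhere: it had 5872 and 6403 with taurolidine, against 3905 and 4295 without (0.58 ± 0.11), and changed by 1.60 and 1.55 elsewhere (difference -0.99 ± 0.14, adjusted p = 0.043; 8 of 27 alternatives). FOSB ran the other way, with 6.16 in VA-ES-BJ, 3.05 for A-204 and 5.55 for SK-LMS-1, and its difference of 1.86 ± 0.39 did not pass (adjusted p = 0.10).

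Genes of mitosis were mostly lower with taurolidine in VA-ES-BJ, by a count that the scale and the arrays set. Cells make the proteins of spindle, kinetochore and division late in the cycle, and many of their promoters hold the cell cycle homology element, through which a repressor complex and its activating counterpart act. Of the 27 genes of the mitosis and G2/M list, all tested, 17 fell and none rose in VA-ES-BJ, beside 4 falls and 4 rises for A-204 and 7 falls and no rise for SK-LMS-1. Over all genes the share that fell was 9.7% for VA-ES-BJ, 18.8% for A-204 and 10.3% for SK-LMS-1. The share that rose was 4.66%, 11.5% and 5.91% in that order. The falls in VA-ES-BJ numbered 9 with equal array medians, 26 with equal control transcripts and 8 in the VA-ES-BJ arrays alone. Under those settings 945, 5197 and 674 of all 14221 genes fell, in that order. The median change was -0.55 in VA-ES-BJ, against 0.12 for A-204 and -0.26 for SK-LMS-1, and 0.06 over all genes in VA-ES-BJ. In 25 of the 27 the VA-ES-BJ change was below that of both other lines, which was so for 30.7% of all genes. In 16 both VA-ES-BJ pair changes lay below all 4 others, which was so for 8.65% of all genes. Relative to all genes the median was -0.61 as deposited, -0.74 after quantile normalisation, -0.60 with equal medians and -0.63 with equal control transcripts. Fewer members passed when any VA-ES-BJ array was left out, as over all genes. The median was -0.53 without the VA-ES-BJ TRAIL array, -0.62 without the untreated array, -0.64 without both agents and -0.48 without taurolidine. Relative to all genes it was -0.57, -0.66, -0.69 and -0.54 in that order.

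Promoters of a kinase and a motor protein of the list are shown for the element TTTGAA, in capitals, which was added to the search after the values were seen. PLK1 lies on the plus strand at chr16:23678639-23678938 with the element starting 29 bases before the gene start, and KIF23 on the plus strand at chr15:69414099-69414398 with the element starting 55 bases before it.
PLK1: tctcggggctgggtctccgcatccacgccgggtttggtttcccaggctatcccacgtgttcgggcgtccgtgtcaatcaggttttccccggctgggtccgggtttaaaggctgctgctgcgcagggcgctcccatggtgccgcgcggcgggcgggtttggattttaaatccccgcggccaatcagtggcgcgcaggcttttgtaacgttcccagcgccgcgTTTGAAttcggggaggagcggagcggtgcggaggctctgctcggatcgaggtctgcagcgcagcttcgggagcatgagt
KIF23: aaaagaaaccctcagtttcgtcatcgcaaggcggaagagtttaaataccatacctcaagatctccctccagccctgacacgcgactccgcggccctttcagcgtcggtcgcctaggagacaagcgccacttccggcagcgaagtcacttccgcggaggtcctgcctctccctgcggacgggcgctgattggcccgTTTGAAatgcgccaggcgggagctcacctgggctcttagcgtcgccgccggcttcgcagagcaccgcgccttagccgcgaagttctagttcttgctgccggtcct
On either strand TTTGAA occurred in 15.4% of the 27305 promoters and in 12 of the 22 list members with a promoter in the table, the GRCh38.p14 windows from RefSeq as above.

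PLK1, the polo-like kinase of mitotic entry, had 2307 and 2329 with taurolidine in VA-ES-BJ, against 4915 and 5463 without, a change of -1.16 ± 0.14 (adjusted p = 0.0031). KIF23, a kinesin of cytokinesis, had 1751 and 1958 with taurolidine, against 3598 and 4047 without (-1.04 ± 0.09, adjusted p = 0.0010). CENPE, the kinetochore motor, had 951 and 981 with taurolidine, against 2333 and 2082 without, and KIF20A, another kinesin of cytokinesis, had 2376 and 2032 against 4801 and 4625. All 4 were about 2-fold lower on both arrays with the drug than on either array without it. CENPE changed by -1.18 ± 0.10 in VA-ES-BJ, 0.15 for A-204 and -0.31 for SK-LMS-1 (difference -1.10 ± 0.12, adjusted p = 0.026; 8 of 27 alternatives). KIF20A changed by -1.10 ± 0.09, 0.15 and -0.20 (difference -1.07 ± 0.12, adjusted p = 0.026; 9 of 27). The third member whose difference passed was the cyclin CCNB2 (-0.72 ± 0.10, adjusted p = 0.048), and DLGAP5, a spindle protein outside the list, also passed (-0.92 ± 0.13, adjusted p = 0.043); both were picked out after their values were seen. The difference for PLK1 was -0.98 ± 0.17 (adjusted p = 0.071).

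Genes of DNA replication had a median change of 0.29 in VA-ES-BJ, where 9 of 26 rose and none fell, beside 4.66% of all genes higher. MCM5, a subunit of the replicative helicase, had 4540 and 4636 with taurolidine, against 2442 and 2800 without (0.81 ± 0.10), and GINS2 had 5902 and 6428 against 3578 and 3923 (0.72 ± 0.10). MCM6 and CDC45, both parts of the active helicase, rose by 0.61 and 0.58. With equal control transcripts none of the 26 was higher and 7 were lower, and the median was -0.25, or 0.21 relative to all genes. That scale gave 78 higher and 5197 lower over all 14221 genes. The list median was 0.14 for A-204 and 0.24 for SK-LMS-1. In the VA-ES-BJ arrays alone none of the 26 passed, beside 80 of all genes higher and 674 lower. Fewer rises passed when any VA-ES-BJ array was left out, as over all genes. The list median in VA-ES-BJ was then 0.29 without taurolidine, 0.26 without both agents, 0.25 without the untreated array and 0.34 without TRAIL.

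**Figure D4:**
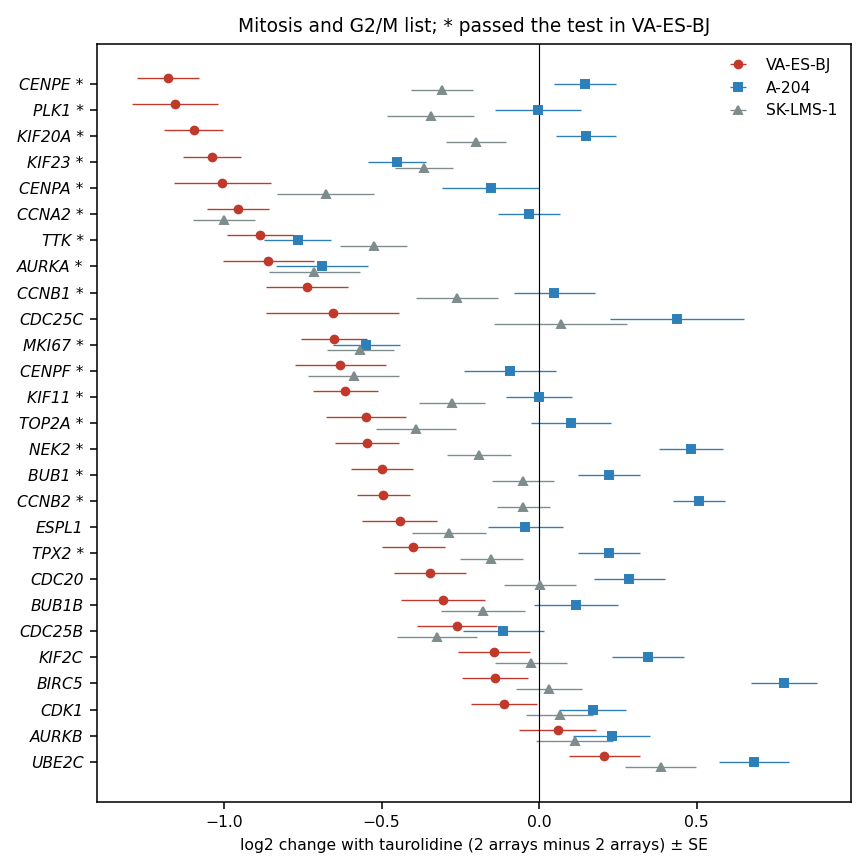
Log2 change with taurolidine (horizontal axis, ± SE from the fit) of the 27 mitosis and G2/M genes in VA-ES-BJ, A-204 and SK-LMS-1, with asterisks on the 17 that passed in VA-ES-BJ. The VA-ES-BJ points run from -1.18 to 0.21 and lie left of both others in 25 genes.

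TRAIL was the partner drug, so the receptors and the extrinsic death pathway were read as a list. Of 20 genes tested, 5 fell in VA-ES-BJ and none rose, beside 9.7% of all genes lower. The falls numbered 3 with equal array medians (list median 0.01), 11 with equal control transcripts and 2 in the VA-ES-BJ arrays alone. Under those settings 945, 5197 and 674 of all 14221 genes fell, in that order. The adaptor FADD had 594 and 630 with taurolidine, against 2391 and 2552 without (-1.99 ± 0.15), the initiator caspase CASP8 had 2656 and 2079 against 5782 and 5008 (-1.19 ± 0.19), the apoptosome gene APAF1 had 919 and 997 against 2128 and 1845, and the caspase inhibitor XIAP had 3693 and 3892 against 6321 and 5076. All 4 also fell in both other lines. TNFRSF10D, the decoy receptor that binds TRAIL without a full death domain, had 1589 and 1636 with taurolidine, against 2390 and 2348 without, a change of -0.55 ± 0.10, with 0.36 for A-204 and 0.34 for SK-LMS-1 (difference -0.90 ± 0.12, adjusted p = 0.043; 9 of 27 alternatives). The signalling receptor TNFRSF10B had 24730 and 26589 with taurolidine, against 21377 and 27862 without (0.07 ± 0.12, adjusted p = 0.74). The list median was -0.22 in VA-ES-BJ. In the BCL2 family the BH3-only gene PMAIP1 rose, with 13052 and 11673 against 5861 and 5751 (1.09 ± 0.09), and BNIP3 rose by 0.58. The survival genes BCL2 and MCL1 fell by 0.82 and 0.55, while the other 14 of 18 did not pass. These counts stand beside 4.66% of all genes higher and 9.7% lower, and the falls were near that share. With equal array medians 4 rose and none fell, beside 2376 and 945 of all 14221 genes. In the VA-ES-BJ arrays alone 1 rose and none fell, beside 80 and 674.

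The integrated stress response and p53 lists held both rises and falls, read beside 4.66% of all genes higher and 9.7% lower. For the alternatives below, 78 of all 14221 genes were higher and 5197 lower with equal control transcripts. In the VA-ES-BJ arrays alone 80 of all genes were higher and 674 lower. In the integrated stress response list 5 of 25 rose and 5 fell, with 1 and 11 when control transcripts were set equal and 2 and 2 in the VA-ES-BJ arrays alone. ATF4, its central factor, had 16114 and 16570 with taurolidine, against 7879 and 8973 without (0.96 ± 0.12), while the sestrin SESN2 had 724 and 589 against 2058 and 1796 (-1.54 ± 0.18) and the cystine transporter SLC7A11 had 434 and 692 against 1279 and 1148. Among p53 targets 4 of 21 rose and 6 fell: GADD45A and GADD45B rose, while the phosphatase PPM1D had 608 and 632 with taurolidine, against 2557 and 2184 without (-1.91 ± 0.20), and the sestrin SESN1 changed by -1.82 ± 0.26. With equal control transcripts 3 p53 targets rose and 13 fell, and in the VA-ES-BJ arrays alone 3 rose and 4 fell. Of 22 heat shock genes tested only HSPA6 and FKBP4 rose, FKBP4 by 0.67, and none fell, with a list median of 0.05. With equal control transcripts none rose and 7 fell, and in the VA-ES-BJ arrays alone none passed. The cochaperone DNAJB1 had a change of -0.23 in VA-ES-BJ that did not pass, and its difference from the other lines was -0.84 ± 0.13 (adjusted p = 0.063). In the NRF2 list 3 of 24 rose and 3 fell, the falls near the share over all genes. OSGIN1 and AKR1C2 rose by 1.25 and 0.98, and KEAP1 and SLC7A11 fell by 0.78 and 1.13. The NRF2 counts became 1 and 10 with equal control transcripts and 1 and 1 in the VA-ES-BJ arrays alone.

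The lists with the lowest medians in VA-ES-BJ, along with mitosis, were the Wnt pathway and transcription elongation with Mediator, whose medians were below 0 in all 3 lines. In the Wnt list 10 of 19 fell in VA-ES-BJ and none rose (median -0.60, against -0.73 for A-204 and -0.69 for SK-LMS-1), beside 9.7% of all genes lower. Its scaffold AXIN1 had 81.0 and 105 with taurolidine, against 582 and 592 without, and the coreceptor LRP6 had 591 and 617 against 1805 and 1502. AXIN1 changed by -2.52 ± 0.37 in VA-ES-BJ, -0.50 for A-204 and -0.06 for SK-LMS-1, but the difference did not pass (-2.25 ± 0.46, adjusted p = 0.10). In the elongation and Mediator list 13 of 25 fell and none rose. The falls numbered 23 when control transcripts were set equal and 6 in the VA-ES-BJ arrays alone, beside 5197 and 674 of all 14221 genes. HEXIM1, the inhibitor of the elongation kinase P-TEFb, had 2283 and 2463 with taurolidine, against 6447 and 6588 without, a change of -1.45 ± 0.11, with -0.47 for A-204 and -0.42 for SK-LMS-1 (difference -1.01 ± 0.13, adjusted p = 0.040; 8 of 27 alternatives). Among TGF-beta targets 6 of 23 fell and none rose, among them ID3 (9161 and 8278, against 17538 and 26649), ID1 and SKIL. In the VA-ES-BJ arrays alone 2 TGF-beta targets fell, and with equal control transcripts 14, beside 674 and 5197 of all genes.

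Among hypoxia and glycolysis genes 5 of 23 rose, among endoplasmic reticulum chaperones 3 of 21, among histone genes 3 of 11 and among cholesterol synthesis genes 2 of 14, with no fall in any of the 4 lists and beside 4.66% of all genes higher. With equal control transcripts none of the first 3 lists had a rise and 1 cholesterol gene rose. On that scale 8, 7, 2 and 3 genes fell in the order given, beside 78 of all 14221 genes higher and 5197 lower. Oxidative phosphorylation had 3 of 22 higher, against 16 for A-204 and 5 for SK-LMS-1. The proteasome had 1 of 25, against 10 and 0. The share of all genes higher was 11.5% for A-204 and 5.91% for SK-LMS-1. In the VA-ES-BJ arrays alone 1 cholesterol gene rose, beside 80 of all genes higher. None of the hypoxia, chaperone, histone, oxidative phosphorylation or proteasome genes did so there. None of the 15 ribosomal protein genes tested passed in any line. Of the 16 SWI/SNF subunits only ARID2 passed in VA-ES-BJ, with 306 and 277 with taurolidine, against 911 and 984 without. SMARCB1 did not pass (1.07), and its 4 signals ran from 21.9 to 262. Among markers, MUC1 rose by 0.66 and COL1A1, a fibrillar collagen, had 3746 and 3575 with taurolidine, against 6511 and 6526 without (-0.83).

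**Figure D5:**
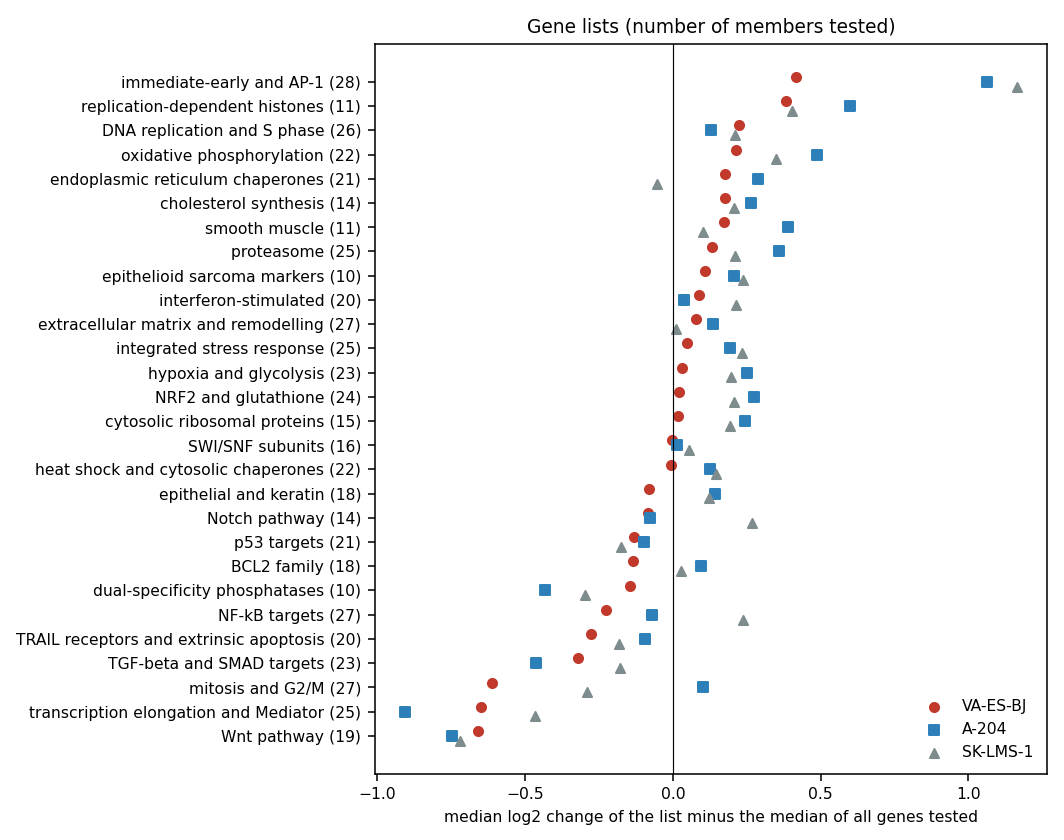
Median log2 change of each of the 28 gene lists with at least 10 members tested, minus the median of all genes tested (horizontal axis), in VA-ES-BJ, A-204 and SK-LMS-1. In VA-ES-BJ the medians run from -0.66 for the Wnt pathway to 0.42 for immediate-early genes, and the mitosis list lies at -0.61 in VA-ES-BJ, 0.10 for A-204 and -0.29 for SK-LMS-1.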

How the data were processed

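RNA of the 12 cell cultures was hybridised to arrays of 54675 probe sets. The deposited values are MAS5 intensity values on a linear scale, per the submitters' processing notes and the values themselves; the version of MAS5 is not given in the sources used here. The 2% trimmed mean was 1000.1 to 1000.2 on every array and the median 123.2 to 155.4. No detection calls were used, and precision is limited by how few arrays there are. A log2 change is of the value plus 11.77 (the 10th percentile), which understates changes of dim genes. Probe sets over the median (136.5) on at least 3 arrays entered, the brightest per gene, leaving 14221 genes; 41091 probe sets had 1 gene, 1801 several and 11777 none, and control probe sets numbered 62.

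One limma fit (version 3.58.1, R 4.3.3) covered the 12 arrays with 6 means, line by taurolidine, and 1 TRAIL term shared by the lines, leaving 5 residual degrees of freedom, and all adjusted p-values come from it with Benjamini-Hochberg adjustment. Nothing says that arrays came from separate experiments, so a p-value reflects just the array-to-array spread, which may be technical. No sample was left out or imputed, and the procedure was tested on simulated data. Those data held no TRAIL effect, so they could not check the TRAIL term shared by the lines. Alternatives changed the constant (1, 50), the filter, the scaling, the probe set, the TRAIL term and the arrays.

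Named genes were the 15 largest rises and falls and the 12 largest differences in each direction (5 for genes dim in some line). The rises and falls were taken among called genes with the same sign in both pairs. Their brighter side also exceeded the median on both arrays, which held for 1959 of the 2041 calls. The differences were taken among genes called both in that contrast and in VA-ES-BJ. Up to 4 of each of 33 gene lists were also named, with further list members where they bear on a result. The members and lists were chosen with earlier results of these data known. The lists hold 672 entries, of which 572 were tested; HSPA1A, HSPA1B and HSPA8 were not among the tested genes.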

Additional observations from a re-analysis of the deposited data

Results flagged for a closer look

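The genes that follow passed the interaction term of the main limma fit. It compares the taurolidine response of VA-ES-BJ with the mean response of A-204 and SK-LMS-1. With a TRAIL term per line, 0 genes passed. DUSP16 had the opposite sign on its other probe sets, and those of HMGA2 gave smaller or opposite differences. RARRES1 reversed with the probe set brightest in VA-ES-BJ. On the log2 scale the response was higher in VA-ES-BJ by 2.81 for INKA1, 2.54 for CTSG, 2.10 for DUSP16, 1.75 for BTG1, 1.67 for RELT, 1.32 for DOLK, 1.32 for TMEM201, 1.25 for KLF10, 1.03 for BRF2, 1.01 for TIMM10B, 0.92 for ARMCX2 and 0.79 for GJC1. Among genes dim in some line it was higher by 1.66 for EML6, 1.43 for RRAGD and 1.09 for TAGLN3. It was lower, with a difference of -3.01 for SOCS1, -2.85 for DDIT4, -2.42 for NFKBIA, -2.18 for RNF145, -2.09 for TSC22D1, -1.99 for SIK1, -1.87 for NRIP1, -1.84 for TFAP2C, -1.81 for PLK2, -1.62 for NFKBIZ, -1.45 for ATXN1 and -1.44 for VAV3. Dim genes had -2.63 for PKDCC, -2.22 for FIGN, -2.14 for RARRES1, -1.73 for C16orf74 and -1.63 for SMAD7. List members and genes chosen after their values were seen had -1.10 for CENPE, -1.07 for KIF20A, -0.72 for CCNB2, -0.92 for DLGAP5, -0.90 for TNFRSF10D, -1.01 for HEXIM1, -0.99 for EGR1, 2.21 for HMGA2, -2.80 for ID2 and -2.22 for JUN.

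The poly-A control transcripts, which lie outside the gene measurement, were brighter by 0.54 (log2) on the VA-ES-BJ arrays with taurolidine than on those without it.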

How the results depend on the processing

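Calls were counted again under 28 alternatives for the VA-ES-BJ response, 27 for its difference from the mean of the other lines, 26 each for those from A-204 and SK-LMS-1 and 25 for the 50 genes that moved further; those that left out an array of A-204 or SK-LMS-1 were chosen after seeing the data. The 662 genes higher with taurolidine in VA-ES-BJ became 232 with no filter, 1059 after quantile normalisation, 2376 with equal array medians, 78 with equal control transcripts, 176 with a TRAIL term per line, 80 in VA-ES-BJ arrays alone, 221 without A-204, 172 without SK-LMS-1, 1355 with a trended robust fit and 0 without the 3 arrays with TRAIL alone. The 1379 lower genes became 5197 with equal control transcripts, 900 with a TRAIL term per line, 674 in VA-ES-BJ alone, 892 without SK-LMS-1 and 0 without the TRAIL arrays, where limma gave 3146 genes in either direction at an unadjusted p under 0.05. Leaving out 1 array gave 129 to 525 higher and 721 to 1381 lower genes.

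The 71 differences from the mean of the other lines became 14 with no filter, 147 with a filter on 6 arrays, 31 with equal medians, 28 with equal control transcripts, 164 with no TRAIL term, 475 with the trended fit, 1 without A-204, and 0 with a TRAIL term per line, without the TRAIL arrays or without SK-LMS-1 (1895, 1528 and 2207 at an unadjusted p under 0.05), and 6 to 52 without 1 array. The 187 differences from A-204 became 290 with a constant of 50, 14 with no filter, 102 and 384 with filters on 2 and 6 arrays, 51 with equal medians, 422 with no TRAIL term, 865 with the trended fit, 0 in the same 3 settings (2251, 1662 and 2207 unadjusted) and 1 to 111 without 1 array. The 81 differences from SK-LMS-1 became 22 with no filter, 36 with equal control transcripts, 3 with a TRAIL term per line, 0 without the TRAIL arrays (1500 unadjusted), 1 without A-204, 241 with the trended fit and 4 to 57 without 1 array. The 50 genes that moved further in VA-ES-BJ became 10, 88, 23, 21, 93, 0, 0 and 188 with no filter, a filter on 6 arrays, equal medians, equal control transcripts, no TRAIL term, a TRAIL term per line, no TRAIL arrays and the trended fit, and 2 to 33 without 1 array. The cause of these moves was not tested.

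Over the named genes and settings, the change in VA-ES-BJ kept its direction and side of the threshold in 1849 cases, lost its call in 278 and reversed in 0. The difference kept both in 533, lost its call in 624, gained one in 1 and reversed in 1, RARRES1, at 0.56 with the probe set brightest in VA-ES-BJ. The labels carry no replicate numbers, so no replicate block was fitted; the fit with a TRAIL term per line, given above, is the one that pairs arrays within a line, with 3 residual degrees of freedom. Values near the 10th percentile of signal, 11.77, carry no order.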
